A study of Mus musculus with 4 samples.

Results

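P2X receptors are cation channels in the plasma membrane that open when extracellular ATP binds them. Each channel is built from 3 subunits, and the mouse subunits are encoded by P2rx1 to P2rx7. In the spinal cord, P2X4 and P2X7 are best known from microglia, the resident immune cells. There, P2X4 is tied to the pain hypersensitivity that follows nerve injury, and P2X7 to inflammasome activation and the release of interleukin-1β. P2X3, alone or together with P2X2, is best known from sensory neurons of the dorsal root ganglia, whose central terminals end in the dorsal horn. A probe was taken as a member when its gene name in the deposited array annotation was one of these 7 names. This gave 14 probes for 7 genes, out of 39429 probes with 30222 gene names on the array. All were compared, and none had a spot marked as an outlier.

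The arrays measured RNA of slices cut at lumbar segments L4 to L5. The mice were males of the outbred ICR stock, 5 to 6 weeks old, and lived in light from ZT0 to ZT12. All mice had a partial sciatic nerve ligation (PSL) on 1 side, and the RNA came from day 7 after injury. ADX-PSL mice had lost their adrenal glands, and with them the main source of corticosterone, and drank saline. Sham-PSL mice had their adrenals exposed and left in place. There was 1 array each for sham-PSL ZT10, sham-PSL ZT22, ADX-PSL ZT10 and ADX-PSL ZT22, where ZT10 lies at the daily peak of circulating glucocorticoid of sham-PSL mice and ZT22 at its low. The 4 arrays lay on 1 slide. Groups follow the deposited labels, but which ADX-PSL array belongs to which time point is uncertain: the published time ratios of these arrays have the labels' direction for sham-PSL and the inverse direction for ADX-PSL. Values with the ADX-PSL time labels exchanged, an alternative chosen after seeing the data, are therefore given beside some results that depend on them. Elsewhere values are as labelled. Exchange would turn the sign of every ADX-PSL time ratio and set each ADX-PSL array against the other sham-PSL array. Calls within the gene lists are given as labelled. The number of mice behind an array and the side of the cord are not given in the methods for the arrays. Each group was measured once, without a replicate array. What sets 1 array apart from another therefore includes variation between mice and between slices, and no p-value was formed for 1 array against 1.

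Levels are the authors' quantile-normalized intensities, in arbitrary units. A probe counts as measured on an array where the image software marked it as well above background, which applied to 27094 probes (68.7%) in sham-PSL ZT10, 26386 (66.9%) in sham-PSL ZT22, 27649 (70.1%) in ADX-PSL ZT10 and 25655 (65.1%) in ADX-PSL ZT22. Of the 14 P2X probes, 11 were well above background on all 4 arrays and 13 on at least 1, and each of the 7 genes had a probe well above background on all 4. The error given with a log2 ratio is the spot error, the image software's error of both spots combined. It covers the measurement of the spots alone, and its median over probes measured on both arrays was 0.20 in each comparison. It was formed on the background-subtracted signal. None was formed for the ratios given under other background corrections, where an offset or unsubtracted background draws ratios of dim probes toward 0. A probe was called higher or lower in a comparison at a ratio of 2 or more with a Z-score of 2 or more, or at a ratio of 0.5 or less with a Z-score of -2 or less, provided that the brighter array had it well above background. Z-scores were formed by centring the log2 ratios of all probes on their mean and scaling them to an SD of 1.

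Among the P2X genes, by probes well above background on all 4 arrays, P2rx7 differed most between the arrays. It has 3 probes, which the annotation places on chromosome 5 of mm9, on the forward strand. The gene gives rise to several transcripts with different ends, and the description of each probe names another transcript variant. For these probes, in the order below, the annotation lists 2, 3 and 4 transcript entries. A probe therefore need not report 1 variant alone. The start of each probe is shown with its position.
A_55_P2183010, transcript variant 4, chr5:123105174-123105233, first 30 bases: ggtcaaaaagctccccaatccatgcaacaa
A_51_P506733, transcript variant 2, chr5:123120528-123123413, whole probe: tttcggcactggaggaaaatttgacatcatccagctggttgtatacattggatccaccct
A_52_P393314, transcript variant 1, chr5:123134194-123134253, first 30 bases: ttcacttctctctttaaagggaaccatctt
The 60 bases of A_51_P506733 are spread over 2886 bases of the genome, so that this probe crosses an intron and pairs with spliced RNA. No letters are in capitals because no part was singled out.

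The level of P2rx7 probe A_52_P393314 was 464 in sham-PSL ZT10, 301 in sham-PSL ZT22, 230 in ADX-PSL ZT10 and 563 in ADX-PSL ZT22. It was well above background on all 4 arrays. The order ran from ADX-PSL ZT22 through sham-PSL ZT10 and sham-PSL ZT22 to ADX-PSL ZT10, so the time points were ranked one way in sham-PSL and the other way in ADX-PSL. In sham-PSL the ZT10 level was 1.54-fold that at ZT22, a log2 ratio of 0.63 ± 0.21 (spot error). In ADX-PSL the ZT22 level was 2.44-fold that at ZT10, which as ZT10 over ZT22 is a log2 ratio of -1.29 ± 0.21. With the ADX-PSL time labels exchanged this ratio is 1.29, and the probe is then higher at ZT10 in both operations, so the opposite directions rest on these labels.

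Probe A_51_P506733 of P2rx7 lay near background, so its groups cannot be ranked in full. It was well above background in sham-PSL ZT10, at 36.1, and in ADX-PSL ZT22, at 36.5. It was not well above background in sham-PSL ZT22, at 16.0, nor in ADX-PSL ZT10, at 13.9. The differences are therefore lower bounds, formed against the higher of the dim array's lowest level that was well above background and the probe's own level there. They were at least 1.97-fold in favour of ZT10 for sham-PSL and at least 2.63-fold in favour of ZT22 for ADX-PSL. These bounds hold for the background-subtracted signal only. As measured, the log2 ratios were 1.18 ± 0.53 and -1.39 ± 0.50. With normexp background correction they were 0.26 and -0.38, and with the mean signal left uncorrected for background 0.23 and -0.36.

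The remaining P2rx7 probe, A_55_P2183010, did not have this order. Its level was 65.6 in sham-PSL ZT10, 77.9 in sham-PSL ZT22, 53.0 in ADX-PSL ZT10 and 66.0 in ADX-PSL ZT22. As labelled it was lower at ZT10 than at ZT22 in both operations, with log2 ratios of -0.25 ± 0.23 and -0.32 ± 0.24. Exchanging the ADX-PSL time labels makes the latter 0.32, so this shared direction rests on the labels. The labelled ratios were -0.11 and -0.12 with normexp and -0.11 and -0.07 with the uncorrected mean signal. The probes of P2rx7 thus disagree, 2 of them with opposite time differences in sham-PSL and ADX-PSL as labelled and 1 with none of that kind. With the ADX-PSL time labels exchanged those 2 share a direction in both operations, and A_55_P2183010 is the probe with opposite signs. Whether they report different transcripts was not tested.

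**Figure D1:**
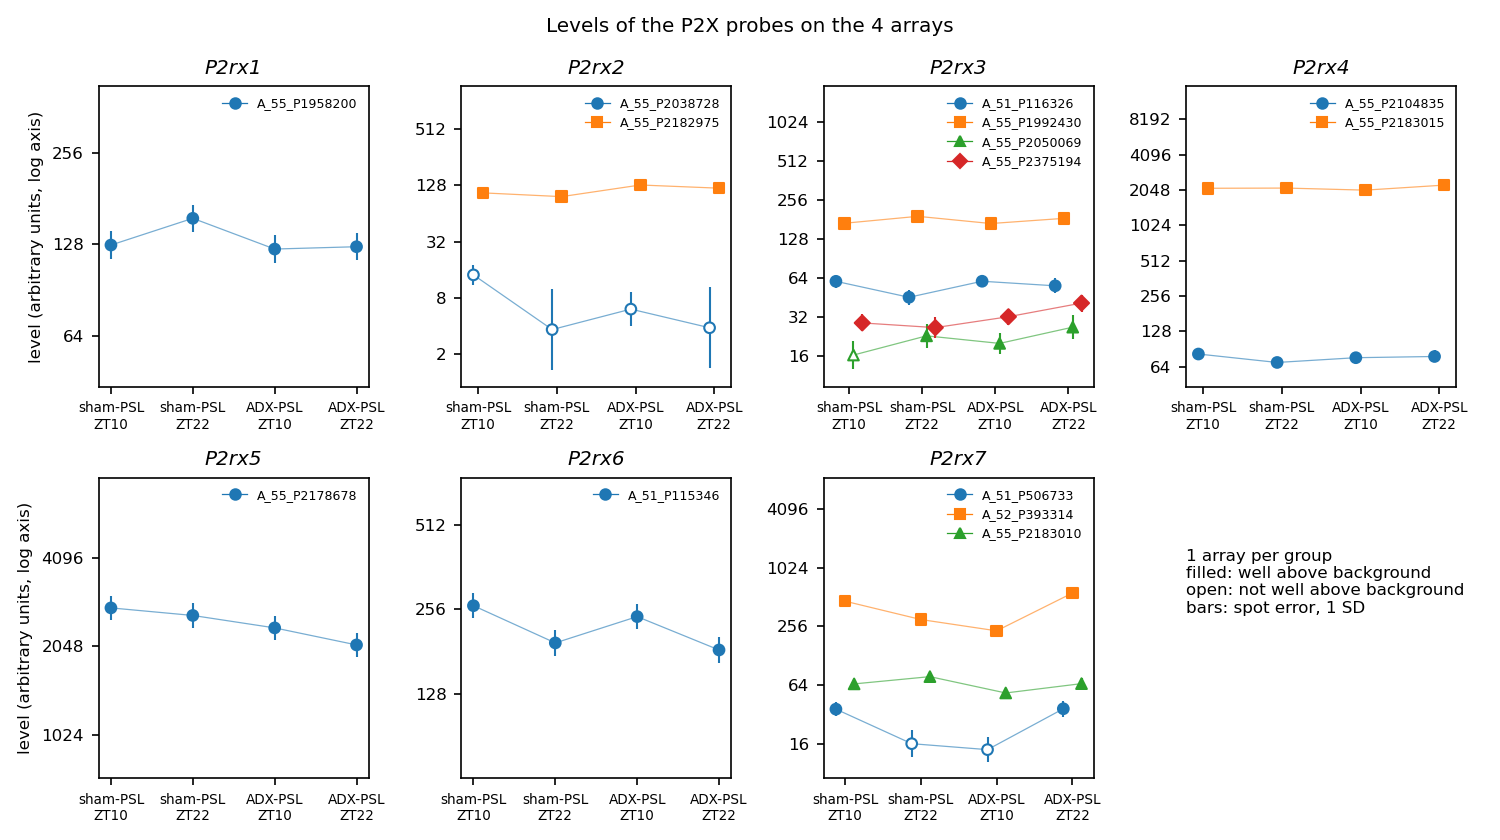
Level of each P2X probe on the 4 arrays, in arbitrary units on a log axis, 1 panel per gene; filled points are well above background, open points are not, and bars are the spot error (1 SD). For P2rx7, probe A_52_P393314 runs from 230 in ADX-PSL ZT10 to 563 in ADX-PSL ZT22, while A_55_P2183010 lies between 53.0 and 77.9; scales differ between panels, and levels of different probes are not to be set against each other.

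P2rx4, the next protein-coding gene on chromosome 5 after P2rx7 in the RefSeq annotation of GRCm38.p6, encodes the subunit most studied in spinal microglia after nerve injury. Its probe A_55_P2183015 (chr5:123178983-123179042, mm9) had a level of 2115 in sham-PSL ZT10, 2123 in sham-PSL ZT22, 2039 in ADX-PSL ZT10 and 2250 in ADX-PSL ZT22. The highest of these is 1.1-fold the lowest, a log2 range of 0.14 that is under the spot error of 0.20. Probe A_55_P2104835 had levels of 82.0, 69.5, 76.3 and 78.2 in the same order of groups, a log2 range of 0.24. No order of the groups exceeded the spot error by much on either probe, and with 1 array per group a true difference of this size could not have been told from one between mice. The P2rx4 probes and the 6 protein-coding neighbours of the P2rx7 and P2rx4 pair, 3 on each side and chosen after the P2rx7 values were seen, had no opposite time differences beyond the spot error, as A_52_P393314 had. The neighbours Anapc7, Atp2a2, Ift81, Camkk2, Anapc5 and Rnf34 had log2 ratios of ZT10 to ZT22 between -0.17 and 0.20 over both operations.

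P2rx6 separated the time points in both operations. It encodes a subunit that forms channels mainly together with other subunits. Its probe A_51_P115346 (chr16:17571293-17571352, mm9) had a level of 264 in sham-PSL ZT10, 195 in sham-PSL ZT22, 241 in ADX-PSL ZT10 and 184 in ADX-PSL ZT22. Both ZT10 arrays lay above both ZT22 arrays, by a log2 ratio of 0.44 ± 0.21 under sham operation and 0.39 ± 0.21 after adrenalectomy. Exchanging the ADX-PSL time labels makes the latter -0.39, so that the shared direction of P2rx6 rests on the labels too. Ratios at least as far from 1 were found for 11.5% of the probes measured on both arrays, in either operation, so differences of this size were common on these arrays.

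P2rx5 encodes a subunit found in neurons of the central nervous system. Its probe A_55_P2178678 (chr11:72986128-72986187, mm9) had a level of 2772 in sham-PSL ZT10, 2612 in sham-PSL ZT22, 2369 in ADX-PSL ZT10 and 2072 in ADX-PSL ZT22. Both ADX-PSL arrays lay below both sham-PSL arrays. The log2 ratio of ADX-PSL to sham-PSL was -0.23 ± 0.20 at ZT10 and -0.33 ± 0.20 at ZT22, little more than the spot error. With the ADX-PSL time labels exchanged it was -0.42 ± 0.20 at ZT10 and -0.14 ± 0.20 at ZT22.

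P2rx1 and P2rx2 also differed by little more than their spot errors. P2rx1, which encodes the P2X subunit of platelets and smooth muscle, had 127 in sham-PSL ZT10, 156 in sham-PSL ZT22, 123 in ADX-PSL ZT10 and 126 in ADX-PSL ZT22 on its probe (chr11:72828564-72828623, mm9). Its sham-PSL ZT22 array was the highest, and the other arrays lay within the spot error of each other. P2rx2 had a probe that was well above background on all 4 arrays, A_55_P2182975, with levels of 106.6, 97.1, 129.5 and 119.7 in the same order of groups. On that probe both ADX-PSL arrays lay above both sham-PSL arrays, with log2 ratios of 0.28 ± 0.21 at ZT10 and 0.30 ± 0.22 at ZT22. The former was 0.17 with the uncorrected mean signal and the latter 0.18 with normexp. With the ADX-PSL time labels exchanged P2rx2 had 0.17 ± 0.22 at ZT10 and 0.41 ± 0.22 at ZT22. No array had its other probe, A_55_P2038728, well above background, so its measured ratios are not given as differences.

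P2rx3 has 4 probes on the reverse strand of chromosome 2. Probe A_51_P116326 (chr2:84838898-84838957, mm9) was printed 10 times on each array and had levels of 60.3 in sham-PSL ZT10, 45.4 in sham-PSL ZT22, 60.4 in ADX-PSL ZT10 and 55.7 in ADX-PSL ZT22. The SD of its log2 signal between the 10 spots was at most 0.165, in sham-PSL ZT22. That array also had its lowest level, and ZT10 over ZT22 came to a log2 ratio of 0.41 ± 0.25 under sham operation against 0.12 ± 0.25 after adrenalectomy. For this probe the spot error averages the errors of single spots, so it is not the error of the mean over 10 spots. The sham ratio was 0.18 with normexp and 0.17 with the uncorrected mean signal.

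A_55_P1992430 of P2rx3 had levels of 170, 192, 169 and 185, a log2 range of 0.18 that is under the spot error of 0.21. Its last 30 bases are shown because they end in a short repeat, in capitals, of 5 copies of GGTT (chr2:84837707-84837766, mm9).
A_55_P1992430: ttgtttatttGGTTGGTTGGTTGGTTGGTT
Whether this probe also binds other transcripts was not tested. The other two probes are annotated to cDNA clones and lie at 16.2 to 26.7 (A_55_P2050069, not well above background in sham-PSL ZT10) and at 26.4 to 40.9 (A_55_P2375194). The latter had its highest level in ADX-PSL ZT22, with a log2 ratio of ADX-PSL to sham-PSL of 0.63 ± 0.34 at ZT22. That ratio was 0.21 with normexp and 0.17 with the uncorrected mean signal. With the ADX-PSL time labels exchanged A_55_P2375194 had 0.28 ± 0.33 at ZT22 and 0.51 ± 0.32 at ZT10.

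The comparison of ZT10 with ZT22 in sham-PSL asks which transcripts follow the time of day when the glucocorticoid rhythm is present. None of the 14 P2X probes was called, where 2.96% of all probes were. P2rx7 probe A_51_P506733 had a Z-score of 1.97 and A_52_P393314 one of 1.05. A_55_P2038728 of P2rx2 passed both limits, with a Z-score of 3.26, but was not well above background. Over the 11 P2X probes measured on both arrays the median log2 ratio was 0.12, and it was 0.01 over all 25812 such probes. The members' log2 ratios lay between -0.29 and 0.63, 7 of them above 0.

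The same comparison in ADX-PSL asks which of these differences are seen without the adrenal glands. Here 2 of the 14 P2X probes were called, where 2.63% of all probes were. Both belong to P2rx7 and both were lower at ZT10 as labelled, or higher at ZT10 with the labels exchanged, with labelled Z-scores of -2.30 for A_52_P393314 and -2.48 for A_51_P506733. They report the same gene, so the count stands for 1 gene of 7. Among the 25376 probes measured on both ADX-PSL arrays, 0.859% had a ratio at least as far from 1 as A_52_P393314. The median over the 12 P2X probes measured on both arrays was -0.08, against 0.00 over all such probes. The call of A_51_P506733 rests on an array where it was not well above background.

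Adrenalectomy was compared with sham operation at each time point. At ZT10, 1 of the 14 P2X probes was called, where 3.25% of all probes were. It was A_51_P506733 of P2rx7, at least 2.60-fold lower in ADX-PSL, with a Z-score of -2.37. Its measured log2 ratio of -1.38 ± 0.48 was -0.31 with normexp and -0.25 with the uncorrected mean signal, and the call was lost. A_52_P393314 was 2.02-fold lower, a log2 ratio of -1.01 ± 0.21, and with a Z-score of -1.74 it was not called. With Z-scores formed within 20 bins of level the call passed from one probe to the other: A_52_P393314 had -2.66 and was called, and A_51_P506733 had -1.14 and was not. The median over the 11 P2X probes measured on both arrays was -0.05, against 0.00 over all such probes, and 3 of them were higher in ADX-PSL.

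At ZT22 a pair of the P2rx7 probes lay the other way, while A_55_P2183010 was again lower in ADX-PSL, at -0.24 ± 0.24 after -0.31 ± 0.23 at ZT10. None of the 14 P2X probes was called, where 2.49% of all probes were. A_52_P393314 was 1.87-fold higher in ADX-PSL, a log2 ratio of 0.90 ± 0.21 with a Z-score of 1.49, and A_51_P506733 was at least 1.98-fold higher with a Z-score of 1.96. The log2 ratio of A_51_P506733, 1.19 ± 0.54 as measured, was 0.33 with normexp and 0.34 with the uncorrected mean signal. The median over the 12 P2X probes measured on both arrays was 0.13, against 0.01 over all such probes. These comparisons share their arrays with the comparisons of time, so they are the same 4 values of each probe read in another direction. With the ADX-PSL time labels exchanged no P2X probe was called at ZT10, where 2.76% of all probes were, or at ZT22, where 3.3% were, and A_52_P393314 had log2 ratios of 0.28 and -0.39. A_55_P2183010 then had 0.01 at ZT10 and -0.56 at ZT22, so that it was lower in ADX-PSL at ZT22 alone.

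**Figure D2:**
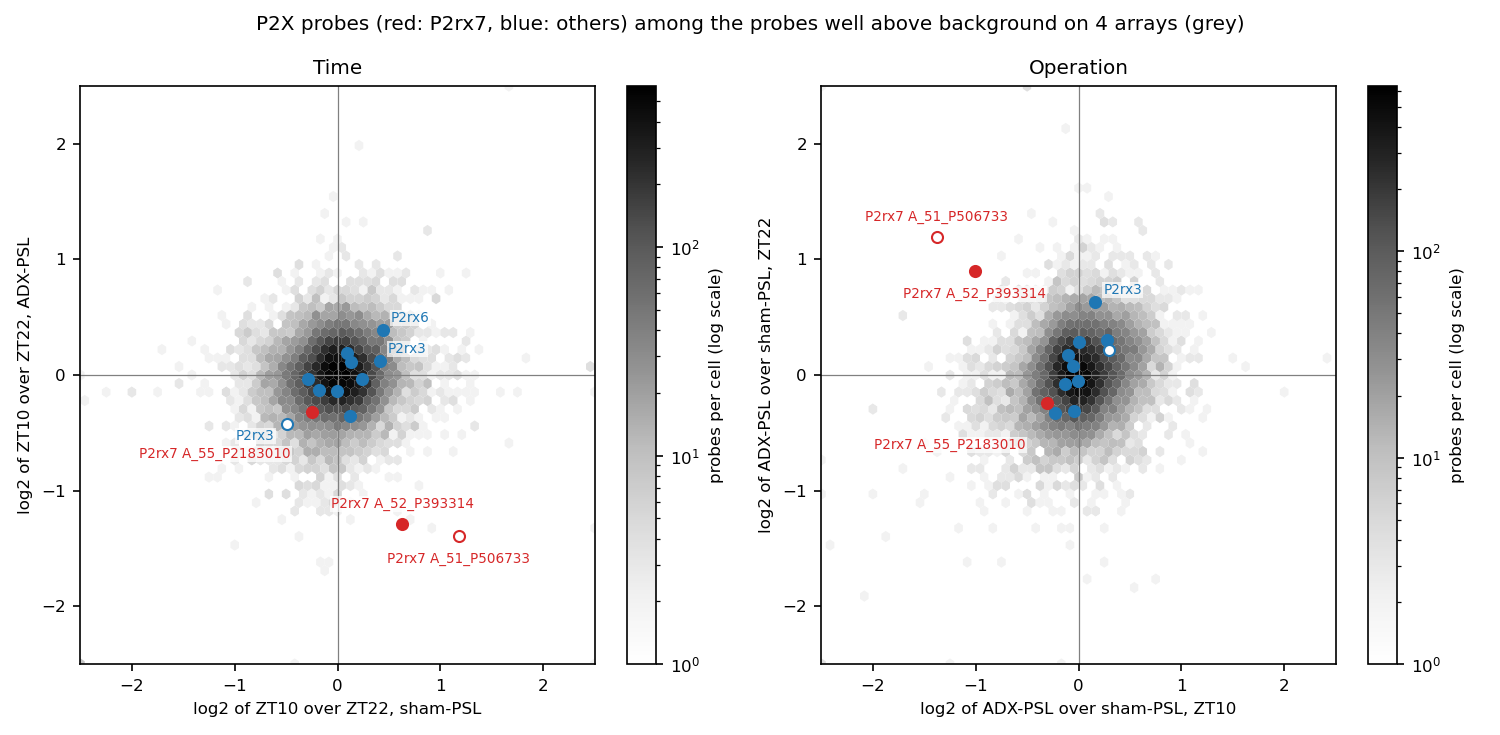
Log2 ratios of P2X probes (red for P2rx7, blue for the other genes; open points not well above background on all 4 arrays) over those of 25009 probes that all 4 arrays measured (grey, probes per cell on a log scale), with ZT10 over ZT22 in sham-PSL against ADX-PSL on the left and ADX-PSL over sham-PSL at ZT10 against ZT22 on the right. The probes A_52_P393314 (0.63 and -1.29 on the left) and A_51_P506733 of P2rx7 lie apart in both panels, and the other P2X probes shown lie in the central cloud; A_55_P2038728 of P2rx2, which no array had well above background, is not drawn, and values beyond 2.5 are drawn at the edge.

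The difference between the time effects was set beside that of all probes. For A_52_P393314 of P2rx7, subtracting the ADX-PSL time ratio from the sham-PSL one on the log2 scale gave 1.92 ± 0.29 (spot error). A difference at least as far from 0 was found for 0.58% of the 25009 probes that every array measured, and 0.068% were at least as high in sham-PSL and at least as low in ADX-PSL as this probe. With the ADX-PSL time labels exchanged the difference was -0.66, and 9.91% of these probes were at least as far from 0. For the other 10 P2X probes that all 4 arrays measured, the labelled difference lay between -0.27 and 0.47, and at least 15.5% of all probes had one as large. With the labels exchanged, theirs lay between -0.57 for A_55_P2183010 and 0.83 for P2rx6. The P2rx6 value was then further from 0 than that of A_52_P393314, and 6.08% of probes were at least as far. The difference between mice was not measured, so these shares describe the 4 arrays and test nothing.

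Operation and time were also entered as terms of an additive limma model. It took in 28843 probes, 13 of them P2X probes, that passed the background flag on at least 1 array. It has 1 residual degree of freedom and takes the difference between the time effects as error. No P2X probe was called for operation, where 0% of all probes were, and none for time, where 0% of all probes were. At an unadjusted p under 0.05 the limma fit had 1803 probes for operation, none of them a P2X probe, and 1420 for time, of which 2 were P2X probes. These were P2rx6, higher at ZT10 by 0.42 (SE 0.12, limma adjusted p = 0.932), and A_55_P2050069 of P2rx3, lower at ZT10 by a log2 difference of -0.45 (SE 0.12, limma adjusted p = 0.932). The latter rests on a sham-PSL ZT10 level that was not well above background. P2rx7 probe A_52_P393314 had a time term of -0.33 with an SE of 0.58, because its opposite differences cancel in this model. With the ADX-PSL time labels exchanged its term was 0.96 (SE 0.23, limma adjusted p = 0.998) and no probe was called, while P2rx6 had 0.02. A_55_P2050069 then had -0.04 (SE 0.30), and A_51_P506733 of P2rx7 had 1.29 (SE 0.13, limma adjusted p = 0.998). The latter rests on levels in sham-PSL ZT22 and ADX-PSL ZT10 that were not well above background.

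The transcripts nearest to A_52_P393314 were sought among the same 25009 probes, by the Euclidean distance between log2 levels centred on their mean over the 4 arrays. The nearest were Cr2, which encodes complement receptor 2, at a distance of 0.146, Cpsf4, which encodes a subunit of the mRNA cleavage and polyadenylation complex, at 0.156, and the transcript ENSMUST00000099683, which has no symbol, at 0.267. Cr2 had levels of 99.5 in sham-PSL ZT10, 63.9 in sham-PSL ZT22, 52.0 in ADX-PSL ZT10 and 110 in ADX-PSL ZT22. Cpsf4 had levels of 51.9, 33.8, 28.4 and 70.9 in that order. With 4 values per profile, such nearness is a description of these arrays.

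Microglia express P2rx4 and P2rx7, and their markers were read beside them. All 9 of 9 markers were well above background on all 4 arrays. Their summed level was 111800 in sham-PSL ZT10, 144700 in sham-PSL ZT22, 130500 in ADX-PSL ZT10 and 137400 in ADX-PSL ZT22, led by Itgam. None was called in any comparison. In sham-PSL all 9 were lower at ZT10, with a median log2 ratio of -0.46, and in ADX-PSL as labelled 8 of 9 were, with a median of -0.18. With the ADX-PSL time labels exchanged those 8 were higher at ZT10, opposite to sham-PSL. Against sham-PSL, 6 of 9 were lower in ADX-PSL at ZT10, with a median of -0.10, and 8 of 9 at ZT22, with a median of -0.28, although the sum was higher in ADX-PSL at ZT10. Cx3cr1, the fractalkine receptor, had levels of 5633, 8244, 5534 and 5560 in the order sham-PSL ZT10, sham-PSL ZT22, ADX-PSL ZT10, ADX-PSL ZT22. Aif1, which encodes Iba1, had 2767, 3811, 2012 and 3130. Sham-PSL ZT22 was thus the highest array for both, where A_52_P393314 of P2rx7 was low. In these bulk slices, fewer cells of a type and less RNA per cell cannot be told apart. The distance of the marker profiles from that of A_52_P393314 was 0.951 for Aif1, the nearest, and 1.29 for Siglech, the farthest, and 25.0% and 91.0% of probes lay nearer.

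**Figure D3:**
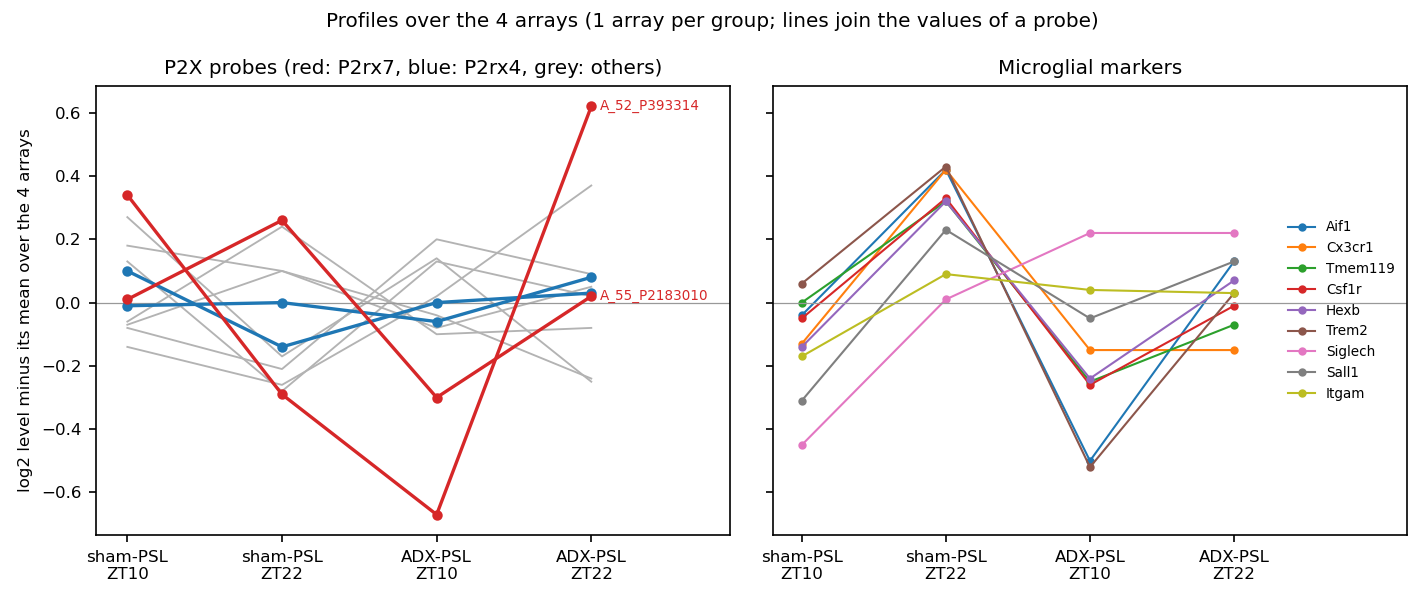
Log2 level minus its mean over the 4 arrays for P2X probes well above background on all 4 arrays (left; red P2rx7, blue P2rx4, grey other genes) and for 9 microglial markers (right), with lines joining the values of 1 probe. P2rx7 probe A_52_P393314 is high in sham-PSL ZT10 and ADX-PSL ZT22, P2rx4 is nearly flat, and in sham-PSL each microglial marker has its ZT10 value below its ZT22 value.

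Genes that act with P2X4 and P2X7 were compared from lists. Of all 30222 genes, 937 were called over time in sham-PSL, 806 over time in ADX-PSL, 1003 between the operations at ZT10 and 787 at ZT22, for comparison with the counts from these lists and the marker lists. Of 9 genes tied to the regulation and output of P2X4, 1 was called lower at ZT10 in sham-PSL and lower in ADX-PSL at ZT22, and none in the other comparisons. This was Fn1, which encodes fibronectin, a matrix protein known to raise P2X4 in microglia, with 1790 in sham-PSL ZT10, 5682 in sham-PSL ZT22, 1817 in ADX-PSL ZT10 and 1419 in ADX-PSL ZT22. It stood out on the sham-PSL ZT22 array alone. Irf8 and Irf5, transcription factors that drive P2rx4 in activated microglia, were not called. Irf5 had 185, 213, 141 and 241 in that order of groups, and Irf8 had 687, 925, 559 and 683. Bdnf, the neurotrophin released from microglia after P2X4 stimulation, had levels of 178, 168, 205 and 167.

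Of 6 genes of the P2X7 output, the inflammasome and its cytokines, Il1b was called lower at ZT10 in sham-PSL and lower in ADX-PSL at ZT22, and no other was called. Il1b was well above background only in sham-PSL ZT22, at 21.6, which is at least 1.45-fold over sham-PSL ZT10; no bound could be set against ADX-PSL ZT22, whose lowest level well above background is 22.2. Casp1, the protease that matures interleukin-1β, had levels of 326, 532, 395 and 396, and Nlrp3, the inflammasome sensor, had 20.4, 22.7, 28.1 and 29.1. Neither had the order of A_52_P393314, and the 5 genes measured on both arrays had a median time ratio, in log2, of -0.20 under sham operation and 0.00 after adrenalectomy.

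The other receptors and enzymes of extracellular purines were called in no comparison. These were 8 P2Y receptors, the G-protein-coupled receptors for nucleotides, 4 adenosine receptors and 7 ectonucleotidases, which break ATP down. P2ry12, the microglial ADP receptor, had levels of 1103 in sham-PSL ZT10, 1461 in sham-PSL ZT22, 1142 in ADX-PSL ZT10 and 1469 in ADX-PSL ZT22, lower at ZT10 in both operations as labelled. With the ADX-PSL time labels exchanged P2ry12 was higher at ZT10 in ADX-PSL, at 1469 against 1142. P2ry6, the microglial UDP receptor, had 457, 689, 328 and 378. P2ry4 and P2ry10 were not well above background on any array. Of 9 genes of ATP release, Calhm1 alone was called, higher in ADX-PSL ZT10 than in ADX-PSL ZT22 and than in sham-PSL ZT10. It was well above background only in ADX-PSL ZT10, at 17.9, near the lowest level the flag allows there. Panx1, which encodes the pannexin of ATP-releasing channels, had levels of 3775, 3969, 3536 and 3843.

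Glucocorticoid-response and clock genes were read because the time points were set by the hormone's rhythm. None of 7 glucocorticoid-response genes was called, and all 7 were higher at ZT10 under both operations, with median log2 ratios of 0.50 and 0.41. Single genes differed from these medians: Sgk1 had 3889, 1748, 1836 and 1453, with ZT10 at 2.22-fold ZT22 in sham-PSL against 1.26-fold in ADX-PSL. With the ADX-PSL time labels exchanged the latter is 0.79-fold, the direction of the published ratio. Of the 9 clock genes on the array, Nr1d1 and Dbp were called lower in ADX-PSL at ZT10, and none was called in another comparison. Nr1d1, a repressor in the clock, had levels of 715 in sham-PSL ZT10, 352 in sham-PSL ZT22, 189 in ADX-PSL ZT10 and 319 in ADX-PSL ZT22. Dbp, a clock output factor, had 22530, 16050, 6433 and 13260. With the ADX-PSL time labels exchanged, Dbp at ZT10 had 22530 in sham-PSL against 13260 in ADX-PSL. This misses the ratio limit of 0.5, so the Dbp call rests on the labels. The Nr1d1 call is given as labelled only. For Nr1d1 and Dbp, ZT10 lay above ZT22 in sham-PSL and below it in ADX-PSL as labelled, the directions of A_52_P393314. However, Nr1d1 and Dbp had their highest level in sham-PSL ZT10 and A_52_P393314 in ADX-PSL ZT22. With the ADX-PSL time labels exchanged, Nr1d1, Dbp and A_52_P393314 all lay higher at ZT10 in both operations. Of the 8 clock genes measured on all 4 arrays, 4 had the same direction over time in both operations as labelled and 4 with the ADX-PSL labels exchanged. Of the 7 glucocorticoid-response genes, 7 had it as labelled and 0 with the labels exchanged. The counts were likewise 6 and 1 for P2X receptors, 4 and 2 for P2Y receptors and 4 and 0 for adenosine receptors. They were 4 and 3 for ectonucleotidases and 4 and 2 for ATP release. The P2X4 list had 7 and 1, and the P2X7 list had 3 and 2. In each pair the first count fixes the other, because exchange turns every ADX-PSL sign. Signs were counted at any size, also under the spot error. Which labelling is right was not tested with these counts.

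Markers of other cells that slices could hold differed between the arrays. Meningeal fibroblast markers had a summed level of 14570 in sham-PSL ZT10, 12620 in sham-PSL ZT22, 4526 in ADX-PSL ZT10 and 5027 in ADX-PSL ZT22, led by Dcn, with 6 of 6 called lower in ADX-PSL at ZT10 and 4 of 6 at ZT22. Schwann cell markers, led by Pmp22, summed to 8092, 9109, 6633 and 8222, with Prx and Egr2, 2 of 4, called lower in ADX-PSL at both time points. Skeletal muscle markers summed to 1528 in sham-PSL ZT10, led by Myh4, and to between 112.7 and 116.3 on the other arrays, led by Acta1, with 3 of 6 called in sham-PSL over time and 4 of 6 lower in ADX-PSL at ZT10. Erythroid markers, led by Hba-a2, summed to 128700, 17930, 90030 and 81050, with 5 of 5 called higher at ZT10 than ZT22 under sham operation and 4 of 5 higher in ADX-PSL at ZT22. Platelet markers, led by Pf4 in sham-PSL ZT10 and ADX-PSL ZT22 and by Gp1bb on the others, summed to 642, 510, 282 and 340, with Ppbp called higher at ZT10 in sham-PSL and Pf4 lower in ADX-PSL at ZT10. Macrophage markers, led by Mrc1, summed to 267, 157, 80.7 and 82.3, with Lyve1 called higher at ZT10 in sham-PSL and Mrc1 and Lyve1 lower in ADX-PSL at ZT10. Within the platelet list, Gp9 had 67.5, 46.9, 43.0 and 70.0, the group order of P2rx7 probe A_52_P393314, and was not called. The other platelet markers measured on all arrays, Pf4 and Gp1bb, did not have this order. For ADX-PSL over sham-PSL at ZT22 they had log2 ratios of -0.64 and -1.09, against 0.58 for Gp9. Smooth muscle and pericyte markers summed to 3260, 2558, 2441 and 3157, high in sham-PSL ZT10 and ADX-PSL ZT22 as Gp9 was, with none called. Their leading gene, Rgs5, had 1580, 1372, 1426 and 2201, so it ran high in ADX-PSL ZT22 alone, and Acta2 had 543 in sham-PSL ZT10 against 258 to 289 elsewhere. What share any of these cells have in the P2rx7 differences was not tested.

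Markers of the cord's own cells were read in the same way. Astrocyte markers, led by Aldoc, summed to 247700 in sham-PSL ZT10, 227300 in sham-PSL ZT22, 253000 in ADX-PSL ZT10 and 213200 in ADX-PSL ZT22, most of it Aldoc, and the median log2 ratio over the list was -0.03 for time in sham-PSL and 0.10 in ADX-PSL. Gfap, the astrocyte filament gene, had 15520, 17310, 8565 and 18030, lowest in ADX-PSL ZT10 as P2rx7 probe A_52_P393314 was, and its log2 ratio of -1.07 over time in ADX-PSL had a Z-score of -1.91. Exchanging the ADX-PSL time labels turns this Gfap ratio, so that ZT10 is then the higher. Oligodendrocyte markers, led by Mag, summed to 147900, 160100, 143100 and 135800, and neuron markers, led by Nefl, to 224800, 214900, 219500 and 200900. Motor neuron markers, led by Slc18a3, summed to 12460, 11240, 10700 and 9496. No member of these lists was called. The endothelial list, led by Flt1 except in ADX-PSL ZT22, where Cldn5 led with 4616, summed to 6587, 7357, 7456 and 8413, and the ependymal list, led by Foxj1, to 1115, 1066, 1362 and 1167, and none of their members was called. T cell markers, led by Cd4, summed to 2589, 2714, 2835 and 2790, and B cell markers, led by Cd79a or, in ADX-PSL ZT22, Cd79b, to 68.1, 101, 86.2 and 105, also without a call.

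Sensory ganglion markers bear on P2rx3 and P2rx2. Of 6 such markers, Scn10a, Mrgprd and Avil were not well above background on any array, and Trpv1 only in sham-PSL ZT10. Trpv1 was called lower in ADX-PSL at ZT10, the only call in this list. The list summed to 17220 in sham-PSL ZT10, 22500 in sham-PSL ZT22, 16430 in ADX-PSL ZT10 and 15020 in ADX-PSL ZT22, nearly all of it Calca, which motor neurons of the cord express too. Scn11a, well above background throughout, had 51.2, 39.3, 54.6 and 53.0 in that order of groups. Most of these transcripts of ganglion neurons were thus near background in the slices. Whether the P2rx3 signal came from their terminals or from cells of the cord was not tested.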

How the data were processed

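Of each array the authors deposited spot intensities from Agilent Feature Extraction (version 10.7.1.1 in the file headers, 9.5.1.1 in the labels), with errors and other values such as flags for spots well above background. Their deposited table holds 1 linear intensity per probe and array, after quantile normalization and after combining repeated spots. Its columns correlated with the log2 signal of their own array at 0.9994 or more, all had a median of 105, and their sorted values were equal within 0.1%. Log2 of this table gave all levels. Calls, Z-scores and bounds were computed in Python 3.11.15 (numpy 2.4.6, pandas 2.3.3), and the additive fit in R 4.3.3 with limma 3.58.1 and Benjamini-Hochberg adjustment (adjusted p under 0.05). Both steps were tested on simulated data. The brightest probe stood for a gene outside the P2X family. Named genes were all P2X members, the members of 8 pathway and context lists that were called or illustrate a list, 17 marker lists by sum and leading gene, the 6 genomic neighbours, and the 3 genes nearest to the widest P2X profile. Time points of the ADX-PSL arrays follow the labels; the exchanged labels were added as an alternative after seeing the data, since the published time ratios for ADX-PSL are inverse. Members and lists were chosen with earlier results of these data known, and 3 marker lists were shortened by 1 gene each after their values were seen. The arrays shared 1 slide, so no batch was fitted. Array count limits the precision. Ciart of the clock list was not found by name on the array. Coordinates are those of mm9 in the deposited annotation.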

Additional observations from a re-analysis of the deposited data

Results flagged for a closer look

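The time effects of 2 P2rx7 probes had opposite signs in sham-PSL and ADX-PSL, each over 2 times its spot error with the authors' levels. Subtracting the ADX-PSL ratio of the time points from the sham-PSL one, on the log2 scale, gave 1.92 for A_52_P393314 and 2.57 for A_51_P506733. The value of A_51_P506733 uses its levels in sham-PSL ZT22 and ADX-PSL ZT10, where it was not well above background, and is given as measured. With normexp its time ratios were 0.26 and -0.38, and with the uncorrected mean signal 0.23 and -0.36. The opposite signs rest on the time labels of the ADX-PSL arrays, which the published ratios contradict in direction. With those labels exchanged the differences are -0.66 and -0.22, and both probes are higher at ZT10 in both operations. The difference was not tested here, since each group has 1 array. The paper measured P2rx4 and P2rx7 mRNA by quantitative RT-PCR in cords of sham-PSL and ADX-PSL mice. For sham-PSL it reported no change on the injured side and no significant variation with time.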

How the results depend on the processing

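Where no gene is named, the P2X probes called under other settings are those of P2rx7. In sham-PSL (ZT10 against ZT22, 0 called) the count was 1 when Z-scores were dropped, 2 when the limit on the ratio was also lowered to 1.5, and 1 without a background filter, which was A_55_P2038728 of P2rx2. In ADX-PSL (2 called) it was 1 with a 75th percentile shift, without normalization between arrays, with normexp background correction (offset 50), with the mean signal without background correction, with Z-scores within 20 bins of level, and with both arrays well above background; under each of these the probe called was A_52_P393314. For ADX-PSL against sham-PSL at ZT10 (1 called) it was 0 with the shift, without normalization, with normexp, with the uncorrected mean signal and with both arrays well above background, and 2 without Z-scores, with the 1.5 limit and without a background filter, where A_55_P2038728 of P2rx2 was 1 of them. With bins it stayed 1, but the probe was A_52_P393314 in place of A_51_P506733. At ZT22 (0 called) it was 1 with the arrays normalized as a pair and without Z-scores, and 3 with the 1.5 limit, of which A_55_P2375194 of P2rx3 was 1. With the time labels of the ADX-PSL arrays exchanged, chosen after seeing the data, the 2 P2rx7 calls in ADX-PSL turned to 1.29 (A_52_P393314) and 1.39 (A_51_P506733), and at ZT10 the count was 0, with A_51_P506733 at 0.01. The additive fits called 0 P2X probes under every setting. The cause was not tested.

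Over 7 settings of normalization, background correction and spots, 352 of 364 log2 ratios of P2X probes moved by less than their spot error. For ZT10 over ZT22, A_52_P393314 gave 0.48 to 0.71 under sham operation and -1.41 to -1.13 after adrenalectomy. No probe's ratio that exceeded its spot error changed sign. Without normalization the median of all probes shifted by up to 0.12. With the mean over a gene's probes in place of the brightest, P2rx7 moved from -1.29 to -1.0 over time in ADX-PSL and from 0.90 to 0.62 for ADX-PSL over sham-PSL at ZT22, where P2rx3 turned from -0.05 to 0.27. P2rx2 moved from 0.13 to 1.04 over time in sham-PSL and from 0.11 to 0.39 in ADX-PSL, and at ZT10 it turned from 0.28 to -0.47, with a probe in the mean that no array had well above background.

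The calls over all probes, 982 to 1280 in the 4 comparisons, were 184 to 272 with the uncorrected mean signal, 218 to 307 with normexp, 257 to 379 with both arrays well above background, 2492 to 3270 with the 1.5 limit and 1925 to 2012 without a filter, and with bins 721 to 848. The fits, at 0, called 14 and 39 with an intensity trend, 8 and 10 with the uncorrected mean signal, 9 and 10 with normexp, 11 and 13 with all 4 arrays well above background, and 0 and 6 without the other factor. Leaving out an array removes the comparisons that use it and gives no other value.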
